A study of Mus musculus with 6 samples.

Results

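The nonclustered protocadherins are 9 genes of the deposited table whose Ensembl identifiers carry the symbols Pcdh1, Pcdh7, Pcdh8, Pcdh9, Pcdh10, Pcdh17, Pcdh18, Pcdh19 and Pcdh20, out of 47062 genes listed. They were followed in RNA from the striatum, subventricular zone included, of mice at postnatal day 0. The 3 mutant libraries (Drd2-Cre;Sp9Flox/Flox) came from animals with floxed alleles of the zinc finger transcription factor gene Sp9 and a Cre recombinase driven by Drd2, the dopamine D2 receptor gene that marks the indirect pathway projection neurons. The 3 control libraries (Sp9Flox/Flox) came from littermates with the same floxed alleles and no Cre. All 6 shared a mixed background of C57BL/6J, 129S6 and CD1. No group carried Drd2-Cre alone, so effects of the Cre transgene and of the Sp9 deletion cannot be told apart. Whether a library stands for 1 animal is not labelled, and all p-values below cover the spread among libraries, which may be technical. In bulk tissue, fewer cells of a type and less RNA per cell cannot be told apart.

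Protocadherins are cell adhesion proteins of the cadherin superfamily that span the membrane once and bind the same protein on a neighbouring cell. Unlike the clustered protocadherins, which lie in tandem arrays, the nonclustered ones each have a gene of their own. Pcdh1, Pcdh7 and Pcdh9 form the delta-1 subgroup, whose cytoplasmic tail binds protein phosphatase 1. Pcdh8, Pcdh10, Pcdh17, Pcdh18 and Pcdh19 form the delta-2 subgroup, in which several members bind the WAVE complex that drives actin branching; Pcdh20 is a further member outside both. In the mouse basal ganglia, Pcdh10 and Pcdh17 proteins are known to mark complementary zones of the corticobasal circuits, and Pcdh10 is needed for the growth of striatal axons.

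No member differed between mutant and control beyond the spread of the libraries. All 9 passed the filter on low values (a mean of at least 0.5 FPKM, which is a fragment count scaled to transcript length and library depth), and 0 of them had an adjusted p under 0.05 or an unadjusted p under 0.05 with limma. Over all 16666 genes tested, 0.06% were called at the adjusted p and 5.65% at the unadjusted p. The criterion of the study (2-fold or more and unadjusted p up to 0.05), applied here to limma p-values and fold changes, called 0 members, against 0.342% of all genes. The members' log2 fold changes, mutant over control on the log2(FPKM + 0.5) scale, were above 0 for 3 and below 0 for 6, with a median of -0.017. The median of all genes tested was -0.00016. The smallest adjusted p among the members was 0.888. The 95% intervals ran from -0.90 for Pcdh20 at the lower end to 0.99 for Pcdh9 at the upper end, and a p above the threshold does not show that the genotypes were alike. Pcdh17, Pcdh10, Pcdh19, Pcdh7 and Pcdh20 varied more inside each genotype than between the group means. Inside each genotype, Pcdh17 was high where Pcdh10, Pcdh19, Pcdh7 and Pcdh20 were low.

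**Figure D1:**
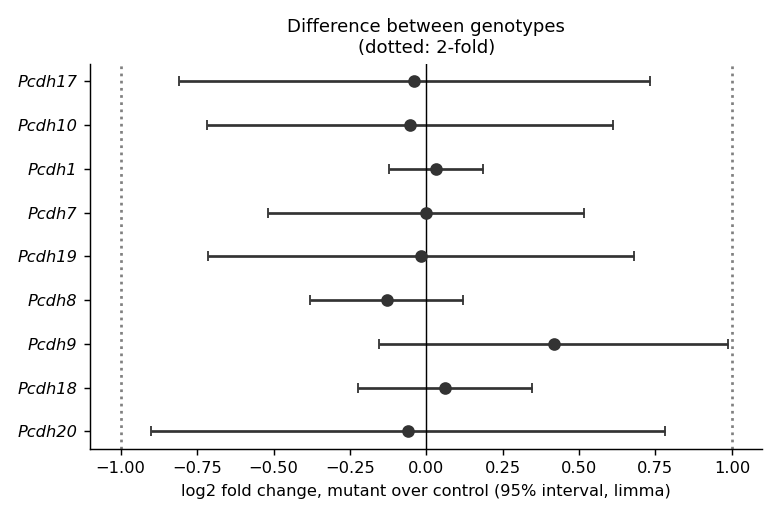
Log2 fold change of each member, mutant over control on the log2(FPKM + 0.5) scale, with its 95% interval from limma (n = 3 libraries each); members run from the highest to the lowest mean level, and dotted lines mark a 2-fold difference. Every interval holds 0, and the intervals of Pcdh1, Pcdh8 and Pcdh18 are the narrowest.

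The targeted gene Sp9 had 8.37, 7.93 and 9.67 FPKM in mutant replicates 1 to 3, against 20.1, 19.0 and 17.3 FPKM in control replicates 1 to 3. Its groups did not overlap, and an exact permutation test (two-sided) gave 0.1, the lowest p possible with 3 against 3 libraries. The log2 fold change of -1.08 had an adjusted p of 0.0567 with limma. Depth was 16236644 to 19458346 fragments assigned to genes per library, inferred from the unit step of each deposited count column. Markers of both classes of striatal projection neuron were abundant: the summed level of 8 genes, among them Foxp1, Bcl11b and Ppp1r1b, was 1326 to 1421 FPKM in the mutants and 1442 to 1521 FPKM in the controls. The summed level of 9 markers of the indirect pathway was 108.5 to 139 FPKM in the mutants and 238.7 to 271.9 FPKM in the controls. Of these 9, 7 were lower at an unadjusted p under 0.05 with limma, against 5.65% of all genes called in either direction. The 9 were chosen with earlier results of these data known, so this count is a description and not independent support. Drd2 and Six3 were not among the 7, with log2 fold changes of -0.018 and 0.071. Control replicate 3 was the only library in which 4 Y-linked genes reached 7.72 to 64.6 FPKM; none of them exceeded 0.188 FPKM in any other library.

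In level, Pcdh17 and Pcdh10 led the family. Pcdh17 ranged from 32.7 to 66.4 FPKM over the 6 libraries with a mean of 50.1, and Pcdh10 from 36.8 to 66.3 FPKM with a mean of 49.8; their ranges overlapped almost wholly. Pcdh1 followed with 31.2 to 36.1 FPKM, overlapping neither of its neighbours in the order, Pcdh10 and Pcdh7, though replicate 2 of the mutants had 32.7 FPKM of Pcdh17. Pcdh7 (10.03 to 15.9 FPKM) and Pcdh19 (7.13 to 13.6) came next, then Pcdh8 (6.11 to 8.17), Pcdh9 (4.91 to 10.8) and Pcdh18 (5.54 to 7.23), and each of these overlapped its neighbour in the order. Pcdh20 was lowest at 0.566 to 1.66 FPKM, below every other member in all libraries. Set among all genes tested, the mean level of Pcdh17 exceeded 86.1% of genes, that of Pcdh18 41.6% and that of Pcdh20 11.3%.

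**Figure D2:**
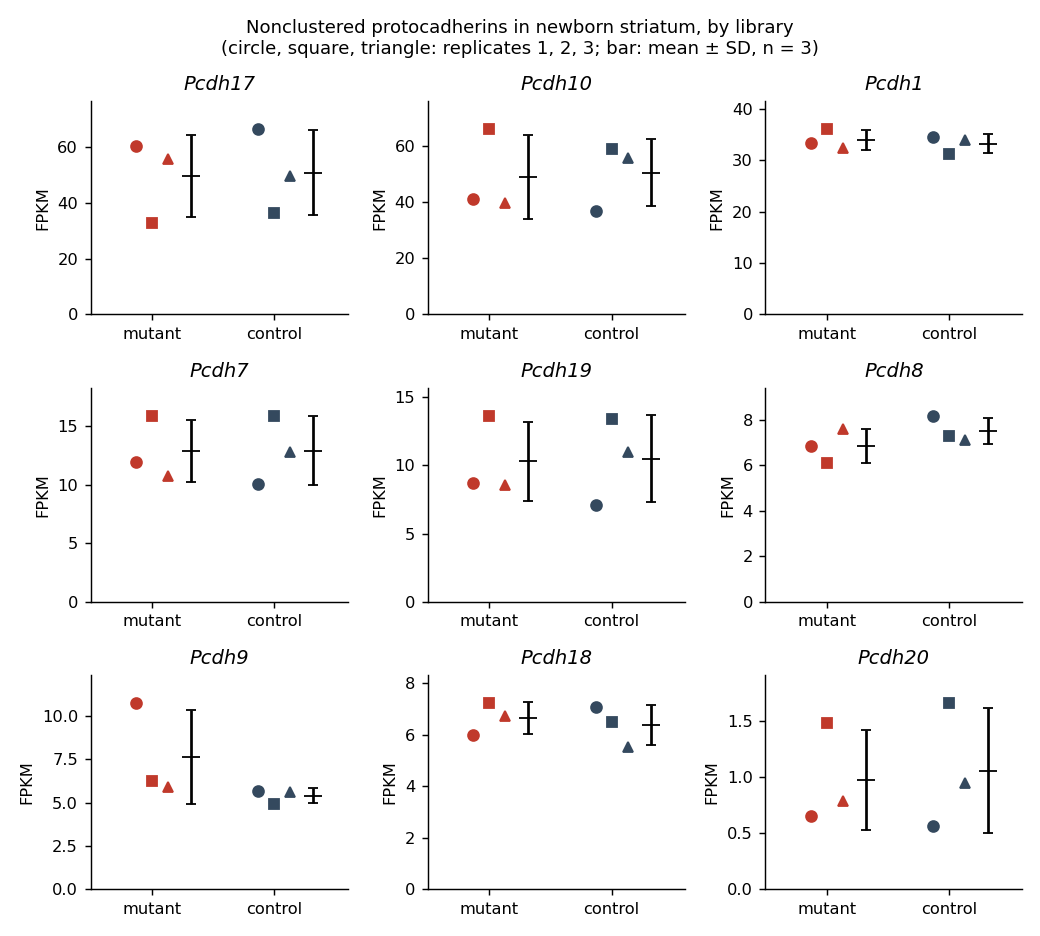
FPKM of each member in every library, mutant left and control right (circle, square and triangle are replicates 1, 2 and 3), with the mean and SD of 3 libraries beside the points; each panel starts at 0. Pcdh1 sits between 31.2 and 36.1 FPKM in all libraries, whereas Pcdh17 and Pcdh10 spread widely in both genotypes and in opposite directions.

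Of the delta-2 members, Pcdh10, Pcdh17 and Pcdh19 varied most between libraries, and the DNA before their transcription starts is shown. They include the most abundant pair and the member closest to Pcdh10 in profile, and the deleted factor belongs to a family that binds GC-rich boxes. The windows are the 250 bases before each start in RefSeq on GRCm38.p6, written 5′ to 3′ on the gene's own strand. Capitals mark the GC box (GGGCGG, or CCGCCC on the other strand) and the CACCC box (CCACCC, or GGGTGG on the other strand). No matches overlapped in any member.
Pcdh10, chr3:45378148-45378397, plus strand: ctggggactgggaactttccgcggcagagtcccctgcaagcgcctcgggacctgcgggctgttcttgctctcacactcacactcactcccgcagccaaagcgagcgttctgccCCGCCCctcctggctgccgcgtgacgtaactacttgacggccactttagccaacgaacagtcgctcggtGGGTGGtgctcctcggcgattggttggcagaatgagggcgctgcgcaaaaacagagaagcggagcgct
Pcdh17, chr14:84443313-84443562, plus strand: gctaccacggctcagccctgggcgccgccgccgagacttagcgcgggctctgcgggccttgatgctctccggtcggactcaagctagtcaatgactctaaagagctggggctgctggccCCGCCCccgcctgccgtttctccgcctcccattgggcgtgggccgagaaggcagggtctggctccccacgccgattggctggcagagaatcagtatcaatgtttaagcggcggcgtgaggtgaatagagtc
Pcdh19, chrX:133688994-133689243, minus strand: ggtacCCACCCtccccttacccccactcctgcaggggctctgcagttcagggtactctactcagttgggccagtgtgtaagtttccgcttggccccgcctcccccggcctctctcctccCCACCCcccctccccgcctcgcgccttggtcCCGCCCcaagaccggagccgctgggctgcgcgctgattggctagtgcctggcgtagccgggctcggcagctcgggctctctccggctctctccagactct

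Each of these windows held 1 GC box, whose first base lay at position -137 from the start of Pcdh10, -131 from that of Pcdh17 and -100 from that of Pcdh19. Pcdh10 also held 1 CACCC box and Pcdh19 held 2. The windows of Pcdh7 and Pcdh20, whose levels moved with that of Pcdh10, held 0 GC boxes and 0 CACCC boxes, as did those of Pcdh8 and Pcdh9. RefSeq windows were matched for 8 members, Pcdh1 being the member with none; 4 of the 8 (Pcdh18 was the fourth) held a GC box and 3 a CACCC box. Over all 32851 windows of the same length, 32.7% held a GC box and 28.1% a CACCC box; counted by gene, it was 35.4% and 30.6%. A match is a description of letters, and its use by any factor was not measured.

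Pcdh10 (ENSMUSG00000049100; GRCm38 chromosome 3, 45378398 to 45435623, plus strand) had 41.2, 66.3 and 39.6 FPKM in mutant replicates 1 to 3 and 36.8, 59.0 and 55.8 FPKM in control replicates 1 to 3. The groups overlapped, with mutant replicate 2 the highest and control replicate 1 the lowest library. The means were 49.0 ± 14.9 FPKM in the mutants and 50.5 ± 12.01 FPKM in the controls (SD, n = 3 each), a log2 fold change of -0.054 ± 0.27 (SE) with a 95% interval of -0.72 to 0.61 and an adjusted p of 0.992 with limma.

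Pcdh17 (ENSMUSG00000035566; chromosome 14, 84443563 to 84539002, plus strand), which in the mouse regulates presynaptic assembly in corticobasal circuits, had 60.3, 32.7 and 55.6 FPKM in mutant replicates 1 to 3 and 66.4, 36.3 and 49.4 FPKM in control replicates 1 to 3. Here control replicate 1 was the highest library and mutant replicate 2 the lowest, the reverse of Pcdh10. The means were 49.5 ± 14.7 FPKM in the mutants and 50.7 ± 15.1 FPKM in the controls (SD, n = 3 each). The log2 fold change was -0.039, with a 95% interval of -0.81 to 0.73.

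Pcdh19 (ENSMUSG00000051323; chromosome X, 133582860 to 133688987, minus strand), whose human counterpart is mutated in an epilepsy that affects mainly females, had 8.67, 13.6 and 8.56 FPKM in mutant replicates 1 to 3 and 7.13, 13.4 and 10.97 FPKM in control replicates 1 to 3. Control replicate 3, the male library, lay between the other controls. The log2 fold change was -0.017, with a 95% interval of -0.71 to 0.68.

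The other delta-2 members varied less. Pcdh8 (ENSMUSG00000036422; chromosome 14, 79766775 to 79771312), known in the rat as the activity-induced adhesion protein arcadlin, had 6.83, 6.11 and 7.58 FPKM in the mutants and 8.17, 7.30 and 7.09 FPKM in the controls. The groups overlapped, and the log2 fold change of -0.13 had a 95% interval of -0.38 to 0.12. Pcdh18 (ENSMUSG00000037892; chromosome 3, 49743296 to 49757325), which binds the reelin adaptor Dab1 in the mouse, had 6.01, 7.23 and 6.73 FPKM in the mutants and 7.08, 6.49 and 5.54 FPKM in the controls, a log2 fold change of 0.061 with a 95% interval of -0.22 to 0.35. In deposited scaled counts, Pcdh8 had 411 in its lowest and 536 in its highest library, and Pcdh18 had 501 and 657.

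Among the delta-1 members, Pcdh1 was the steadiest. Pcdh1 (ENSMUSG00000051375; chromosome 18, 38185914 to 38212053) had 33.4, 36.1 and 32.4 FPKM in the mutants and 34.6, 31.2 and 33.9 FPKM in the controls. The highest and the lowest library differed only 1.16-fold, and the log2 fold change was 0.031 with a 95% interval of -0.12 to 0.18. Pcdh7 (ENSMUSG00000029108; chromosome 5, 57717967 to 58133230) had 11.98, 15.9 and 10.8 FPKM in the mutants and 10.03, 15.9 and 12.8 FPKM in the controls, a log2 fold change of -0.00090 with a 95% interval of -0.52 to 0.52. In both genotypes replicate 2 was its highest library, as for Pcdh10 and Pcdh19.

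Pcdh9 (ENSMUSG00000055421; chromosome 14, 93013410 to 93890679, minus strand) had the smallest p of the family. It had 10.8, 6.23 and 5.93 FPKM in mutant replicates 1 to 3, against 5.69, 4.91 and 5.61 FPKM in control replicates 1 to 3. Every mutant library lay above every control library, and mutant replicate 1 stood well above the other mutants. Groups that do not overlap were found for 11.4% of all genes tested and for 1 of the 9 members. The means were 7.64 ± 2.71 FPKM in the mutants and 5.40 ± 0.427 FPKM in the controls (SD, n = 3 each). This log2 fold change of 0.42 ± 0.23 (SE) had an adjusted p of 0.888 with limma. Without mutant replicate 1 the log2 fold change was 0.16. On the deposited scaled counts the groups of Pcdh9 overlapped, with 855, 497 and 628 in the mutants and 544, 456 and 474 in the controls. The number of scaled counts per unit of FPKM, which moves with the transcript lengths that the authors' software assigned, ran from 79.5 in mutant replicate 1 to 106 in mutant replicate 3 for Pcdh9, a 1.33-fold range. For Pcdh17 that range was 1.005-fold and for Pcdh10 it was 1.05-fold. Its part in the FPKM of Pcdh9 was not tested.

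Pcdh20 (ENSMUSG00000050505; chromosome 14, 88464743 to 88471396) had 0.648, 1.49 and 0.787 FPKM in the mutants and 0.566, 1.66 and 0.941 FPKM in the controls. It rested on only 41.1 to 127 scaled counts per library. Its log2 fold change of -0.059 had the widest 95% interval of the 9, from -0.90 to 0.78.

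The members differed in how much they varied between libraries. Among 10553 genes with a mean of at least 5 FPKM, the SD between libraries of the same genotype, on the log2 scale, was larger for Pcdh17 than for 93.9% of genes, for Pcdh19 than for 93.1%, for Pcdh10 than for 92.9%, for Pcdh9, whose mutant replicate 1 stood apart, than for 91.8% and for Pcdh7 than for 90.95%. It was larger for Pcdh18 than for 71.99%, for Pcdh8 than for 63.6% and for Pcdh1 than for 35.1%. The highest library exceeded the lowest 2.03-fold for Pcdh17, 1.80-fold for Pcdh10 and 2.93-fold for the low Pcdh20.

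5 of these members, Pcdh9 not among them, were correlated with each other. Over the 6 libraries, 36 pairs of members were compared by the correlation of log2(FPKM + 0.5), and 10 had an adjusted p under 0.05 (exact permutation test, two-sided, Benjamini-Hochberg over the 36 pairs). These 10 were all pairs that can be drawn from Pcdh7, Pcdh10, Pcdh17, Pcdh19 and Pcdh20. Pearson's r was 0.91 to 0.98 in the 6 pairs among Pcdh7, Pcdh10, Pcdh19 and Pcdh20, and -0.98 to -0.94 in the 4 pairs of Pcdh17 with those genes. Pcdh10 and Pcdh19 ranked the libraries in the same order (r = 0.98, Spearman's rho = 1.0; exact permutation p = 0.00278 for each, where 6 libraries allow at least 0.00139 for r and 0.00278 for rho; adjusted p = 0.02 for r and 0.0857 for rho). Pcdh10 against Pcdh17 gave r = -0.94 (exact permutation p = 0.00278, adjusted p = 0.02) and rho = -0.94 (exact permutation p = 0.0167, adjusted p = 0.0857). None of the 36 pairs passed the adjustment with Spearman's rho, for which the highest adjusted p of the 10 pairs was 0.12. In the remaining 26 pairs r ran from -0.73 to 0.68, and their smallest adjusted p was 0.292.

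Without the 2 libraries farthest from the median of the first gene, r was 0.71 to 0.96 in the 6 pairs and -0.99 to -0.78 in the 4. With the mean of each genotype taken away from its libraries, r was 0.91 to 0.98 and -0.99 to -0.95, and it was -0.95 for Pcdh10 with Pcdh17. In these smaller or centred sets the 10 pairs did not stand apart by r alone: among the remaining 26 pairs, r reached -0.997 without 2 libraries, for Pcdh7 with Pcdh18, and -0.92 with the genotype means taken away, for Pcdh8 with Pcdh10. The level of Pcdh10 had a gap between 41.2 and 55.8 FPKM with 3 libraries on each side, 2 mutants and 1 control below it and 1 mutant and 2 controls above it, so that r rests in part on these separate sets, each too small for an r of its own. The widest gap of Pcdh17 lay between 36.3 and 49.4 FPKM, with only replicate 2 of each genotype below it. High correlations over 6 libraries are not rare: of the 10552 other genes with a mean of at least 5 FPKM, 2.34% had r of at least 0.9 in either direction with Pcdh10 and 2.65% with Pcdh17. Among the pairs of members it was 27.8%. The points share their libraries, and the members were not chosen at random, so this share is a description.

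**Figure D3:**
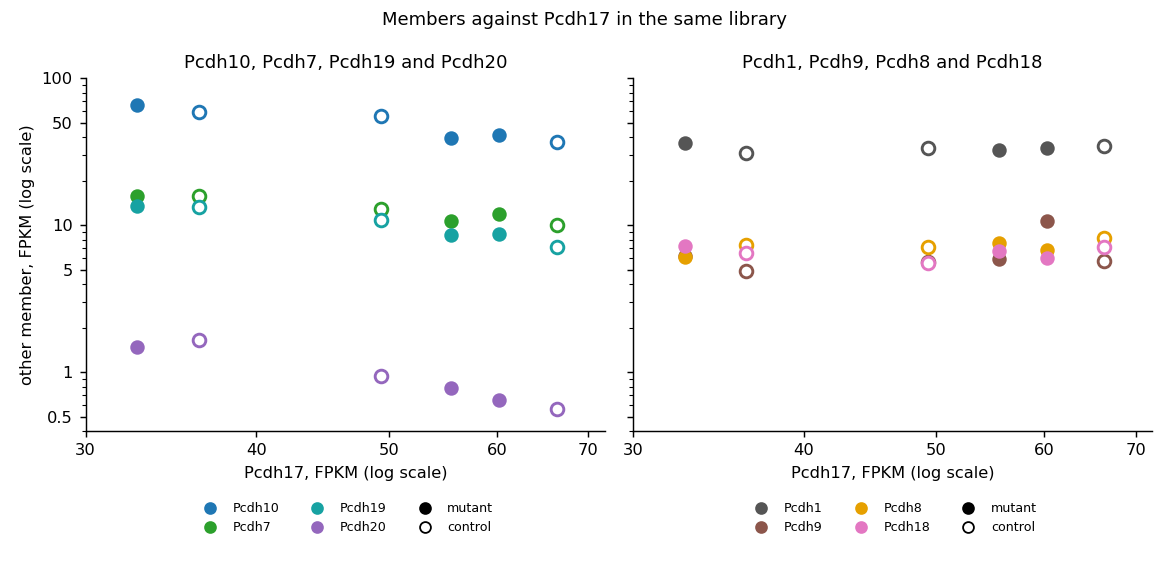
FPKM of the other members (vertical, log scale) against FPKM of Pcdh17 in the same library (horizontal, log scale); filled points are the 3 mutant and open points the 3 control libraries. In the left panel Pcdh10, Pcdh7, Pcdh19 and Pcdh20 fall as Pcdh17 increases, with both genotypes along the same course, whereas Pcdh1, Pcdh9, Pcdh8 and Pcdh18 in the right panel do not.

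**Figure D4:**
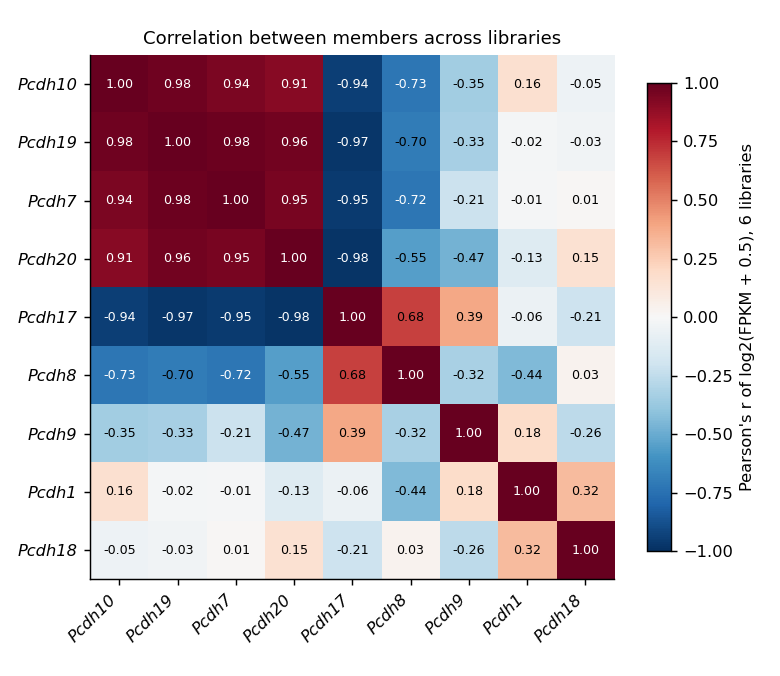
Pearson's r of log2(FPKM + 0.5) over 6 libraries for every pair of members; red is positive and blue negative. Pcdh10, Pcdh19, Pcdh7 and Pcdh20 form a block of r from 0.91 to 0.98, and Pcdh17 has r from -0.98 to -0.94 with each of them.

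The sum of Pcdh10 and Pcdh17 was nearly level, which follows from their close means, similar spread and negative correlation and is not a separate result. Together they had 101.4, 99.0 and 95.2 FPKM in mutant replicates 1 to 3 and 103.2, 95.3 and 105.1 FPKM in control replicates 1 to 3. Their ratio, Pcdh10 over Pcdh17, was 0.683, 2.02 and 0.713 in the mutants and 0.554, 1.63 and 1.13 in the controls, so that the more abundant gene differed between libraries of 1 genotype. The pair made up 53.3 to 56.7% of the summed level of the 9 members in the mutants and 54.1 to 58.5% in the controls. The summed level itself was 168 to 186 FPKM in the mutants and 176 to 182 FPKM in the controls.

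**Figure D5:**
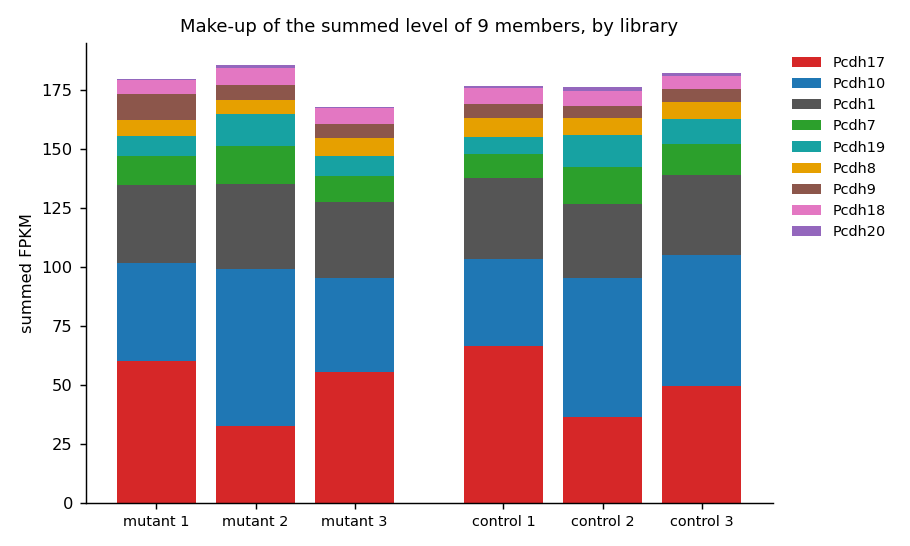
Summed FPKM of the 9 members in each library, mutants left and controls right, with a segment per member. The bars reach 168 to 186 FPKM, and which of the Pcdh17 and Pcdh10 segments is the larger differs between libraries of the same genotype.

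Markers of cells from outside the striatum also differed between libraries. The summed level of 7 markers of cortical glutamatergic neurons was 34.5, 8.20 and 54.5 FPKM in mutant replicates 1 to 3 and 19.7, 22.2 and 7.17 FPKM in control replicates 1 to 3, with 5 of the 7 past the filter (Fezf2 and Emx1 were not) and 0 past the adjusted p. Mutant replicates 1 and 3, with high Pcdh17, were the highest of these, but control replicate 1, with the highest Pcdh17, lay below control replicate 2, with the second lowest. Tbr1 alone had 8.58, 2.74 and 17.7 FPKM in the mutants and 6.90, 5.75 and 3.17 FPKM in the controls. The summed level of 3 septal markers was 11.4, 15.5 and 10.1 FPKM in the mutants and 8.75, 11.98 and 10.4 FPKM in the controls, so that replicate 2 was the highest in each genotype, as for Pcdh10. This held for Zic1 and Trpc4 singly, but not for Zic4, which had 2.42, 2.31 and 3.09 FPKM in control replicates 1 to 3. The septal markers were not alone in this, and it was not limited to markers of cell types. The summed levels of the clustered protocadherins (400.4 FPKM in mutant and 395.3 in control replicate 2) were also highest in replicate 2 of each genotype. So were those of the WAVE complex subunits (479.5 and 490 FPKM). Those of progenitor and oligodendrocyte lineage markers were not. The summed level of 6 markers of interneurons from the medial eminence was 491.8, 492.2 and 407.5 FPKM in the mutants and 316.5, 430.5 and 380.2 FPKM in the controls. Among them Nkx2-1 ranked the 6 libraries in the order of Pcdh10, whereas Sst and Nxph1 were highest in mutant replicate 1. The part of any of these cell types in the levels of the protocadherins was not tested. Where along the striatum each piece of tissue was taken is not given in the sources used here.

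Several members share a place and a gene structure. Pcdh8, Pcdh17, Pcdh20 and Pcdh9 lie in this order on chromosome 14, with gaps of 4.67, 3.93 and 4.54 megabases that hold 1, 2 and 0 other protein-coding genes of GENCODE M21. Pcdh10 and Pcdh18 lie 4.31 megabases apart on chromosome 3 with 1 protein-coding gene between them. Between neighbours, r over the 6 libraries was 0.68 for Pcdh8 with Pcdh17, -0.98 for Pcdh17 with Pcdh20, -0.47 for Pcdh20 with Pcdh9 and -0.052 for Pcdh10 with Pcdh18. In the longest coding transcript of each gene, a single exon held between 62.5% of the coding bases for Pcdh19 and 95.4% for Pcdh20. Exons of Pcdh7, Pcdh8, Pcdh10 and Pcdh19 overlap exons of a transcript on the other strand, and whether strand was used in counting is not given in the sources used here. For Pcdh8 the overlap with Gm9748 was 436 bases, and Gm9748 had 1.92 to 3.04 FPKM; the partners of the other 3 genes had at most 0.825 FPKM.

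Of the relatives outside the list, Pcdh11x, the remaining delta-1 gene and like Pcdh19 on chromosome X, had 11.8, 14.0 and 9.53 FPKM in the mutants and 9.12, 14.6 and 13.2 FPKM in the controls (log2 fold change -0.047, 95% interval -0.57 to 0.48). Pcdh11x ranked the libraries in the order of Pcdh7, so the course shared by Pcdh7, Pcdh10, Pcdh19 and Pcdh20 was not particular to listed members. Its correlation with the members was not tested. Pcdh12 and Pcdh15 had log2 fold changes of 0.19 and -0.065. Among 58 clustered protocadherin genes, 55 passed the filter, and 0 had an adjusted p under 0.05 and 0 an unadjusted p under 0.05 with limma. Of the 55, 38 had estimates above 0, with a median log2 fold change of 0.054. Over all genes tested, 49.9% had estimates above 0, and the clustered genes were not tested as a set. The most abundant were Pcdhgc3 (68.4 ± 3.97 FPKM in the mutants and 75.3 ± 5.29 in the controls; SD, n = 3 each), Pcdhgc4 and Pcdhgc5, with log2 fold changes of -0.14, 0.023 and 0.20. Genes of the alpha and gamma clusters, these 3 included, share constant exons within their cluster, so fragments can be split between them and their levels are uncertain. Leaving out mutant replicate 2 moved the log2 fold change of Pcdhgc5 to 0.038 and leaving out control replicate 1 to 0.080, and those of Pcdh12 ran from 0.11 to 0.33. Pcdhgc3 had an unadjusted p under 0.05 with limma on scaled counts (0.0459), with the replicate number as a block (0.0295) and without control replicate 1 (0.026).

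The intracellular partners were also measured. Of 10 subunits of the WAVE complex, which delta-2 protocadherins recruit, 0 had an adjusted p under 0.05 and 0 an unadjusted p under 0.05 with limma, with a median log2 fold change of -0.028. The smallest p were those of Wasf1, Abi2 and Abi3. Wasf1, the neuronal WAVE protein, had 76.6, 79.3 and 66.2 FPKM in the mutants and 78.3, 87.7 and 87.6 FPKM in the controls (log2 fold change -0.19), Abi2 had a log2 fold change of -0.085, and Abi3, a gene of microglia, had 0.167 to 0.446 FPKM in the mutants and 0.352 to 1.58 FPKM in the controls (log2 fold change -0.60, -0.17 without control replicate 2 and -1.01 with a pseudocount of 0.1). Wasf1 had an unadjusted p under 0.05 with limma on scaled counts (0.0329), without mutant replicate 2 (0.0483) and without control replicate 1 (0.043). Of 13 other reported partners, 0 passed the adjusted p, and at the unadjusted p 1 was higher and 1 lower. The higher was Dab1, with 9.47, 7.92 and 7.55 FPKM in the mutants and 5.53, 6.13 and 3.86 FPKM in the controls (log2 fold change 0.65 ± 0.18, adjusted p = 0.763, limma). The lower was Ppp1ca, the phosphatase subunit that delta-1 tails bind, with 147, 146 and 145 FPKM in the mutants and 153, 157 and 155 FPKM in the controls (log2 fold change -0.086, adjusted p = 0.858, limma). The unadjusted p of Ppp1ca with limma was above 0.05 in robust limma (0.0619), on scaled counts (0.0508), without mutant replicate 1 (0.0524), mutant replicate 2 (0.0573) or control replicate 3 (0.0672). The third smallest p was that of Mef2c, whose MEF2 family induces Pcdh10 in mouse neurons. Mef2c had a log2 fold change of -0.37 with a 95% interval of -0.96 to 0.21. This estimate moved to -0.57 without mutant replicate 2, -0.24 without mutant replicate 1 and -0.18 without control replicate 2. With the replicate number as a block, the unadjusted p of Mef2c with limma was 0.00071, against 0.167 without it, and its adjusted p was 0.552.

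The genes whose profile over the 6 libraries lay closest to Pcdh9 among 9320 protein-coding genes with a mean of at least 5 FPKM were Zfp950, Nrd1 and Tdg, with Euclidean distances of 0.284, 0.348 and 0.355 between log2 values centred on each gene's mean. All had their highest FPKM in mutant replicate 1, with 27.7 for Zfp950, 126 for Nrd1 and 45.7 for Tdg. On the scaled counts the log2 fold change of Nrd1 was -0.036, against 0.36 on FPKM.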

How the data were processed

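The authors deposited 1 table that gives FPKM and counts for 6 libraries, per the file headers. The submitters' processing notes name TopHat (no version), Cufflinks 2.1.1 and genome build GRCm38.p4; the annotation and the handling of strand and multiply mapping reads were not stated there. The deposited count columns are not whole and were treated as a signal (scaled counts): 98.4 to 98.6% of values from 0.01 up to 100 steps lay within 0.1 of a multiple of the library's step, its most frequent low value. No count test was run. Symbols came from GENCODE M21 (46483 of 47062 identifiers), positions from GRCm38.

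Genes averaging 0.5 FPKM or more were tested on log2(FPKM + 0.5) with limma 3.58.1 (R 4.3.3), a variance trend and no covariate. P-values are two-sided, Benjamini-Hochberg adjusted over all genes, threshold 0.05. Correlations used all permutations of 6 libraries. The steps were tested on simulated data, the permutation test against scipy 1.17.1. With a single dispersion (spread beyond counting noise) of 0.00245, limma recovered 72% of genes changed 1.5-fold and 98% of those changed 2-fold. It made 20 false calls among 16589 genes tested. The simulation did not use the spread of single members, so it does not give the power for them. Alternatives were pseudocounts, filters, scalings, a replicate block, robust limma, scaled counts and each library left out.

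Members and lists were chosen with earlier results of these data known. All 9 members are named; of the partner lists, members past the threshold and the 3 with the smallest p; of the relatives, the 3 clustered genes with the highest level; and the 3 closest profiles of the member with the smallest p. Protein sequences were not used here.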

Additional observations from a re-analysis of the deposited data

How the results depend on the processing

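No member passed an adjusted or an unadjusted p of 0.05 with limma in any of the 15 alternatives, and the smallest adjusted p of a member was 0.775, without control replicate 2. The median log2 fold change of the members moved between -0.072 and 0.076 with 1 library left out. With 1 library left out, the log2 fold change ran from -0.013 to 0.065 for Pcdh1, -0.16 to 0.15 for Pcdh7, -0.20 to -0.056 for Pcdh8, 0.16 to 0.56 for Pcdh9, -0.29 to 0.078 for Pcdh10, -0.26 to 0.23 for Pcdh17, -0.029 to 0.13 for Pcdh18, -0.26 to 0.17 for Pcdh19, -0.30 to 0.21 for Pcdh20, -0.24 to 0.092 for Pcdh11x, -0.16 to 0.0056 for Pcdh15, -0.056 to 0.087 for Pcdhgc4 and -0.028 to 0.56 for Nrd1. Pcdh8 and Pcdh9 were the members that kept their sign. Signs also turned for Pcdh7 with median-ratio scaling (0.0024) and on scaled counts (0.017), and on scaled counts for Pcdh1 (-0.0014), Pcdhgc5 (-0.0021), Abi3 (0.065) and Nrd1 (-0.036); the cause was not tested. The log2 fold change of Sp9 passed the adjusted p at pseudocount 0.1 (-1.11), above a mean of 1 FPKM (-1.08), in robust limma (-1.08) and on scaled counts (-1.32); its adjusted p over all alternatives was 0.00635 to 0.579, and it ran from -1.16 to -1.02 leaving out single libraries. Over all genes, 10 passed the adjusted p, against 5 under the replicate block and 23 on scaled counts; leaving out single libraries gave 12 to 21, with 18 without mutant replicate 2, 21 without mutant replicate 3, 16 without control replicate 1 and 20 without control replicate 3. The study's criterion, applied to the limma p-values and fold changes, called 57 genes, which is not the study's own count. It called 90 at pseudocount 0.1, 37 at pseudocount 1 and 71 to 84 leaving out single libraries. The replicate numbers showed no clear pairing over all genes. Deviations of same-numbered libraries correlated at 0.0075, 0.040 and 0.055, against -0.078 to 0.040 for libraries of different number. Replicate 2 was still the highest library of each genotype for Pcdh7, Pcdh10, Pcdh19 and Pcdh20 and the lowest for Pcdh17. Whether same-numbered libraries shared a batch was not tested. The replicate block gave 0 members called, and under it the unadjusted p of Ppp1ca with limma was 0.0806. The correlation of Pcdh10 with Pcdh17 was -0.951 to -0.941 and that of Pcdh10 with Pcdh19 was 0.975 to 0.985 under 4 other measures, chosen after seeing the data. The depth behind Pcdh20 was at most 127 scaled counts a library; its part in the width of that interval was not tested.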

Other observations

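The 2 most abundant members had close followers among other genes, looked up after their values were seen. By Euclidean distance between centred log2 values over 6 libraries, the closest of 9320 protein-coding genes to Pcdh10 were Arhgdib (0.172), its own relative Pcdh19 (0.179) and Plcxd2 (0.235). Arhgdib had 22.7, 34.1 and 22.4 FPKM in mutant replicates 1 to 3 and 18.8, 31.7 and 27.2 FPKM in control replicates 1 to 3, which is the order of libraries seen for Pcdh10. The closest to Pcdh17 were Ak5, an adenylate kinase (0.198), Ctnnal1, a relative of alpha-catenin (0.295), and Epha10, an Eph receptor (0.346). Ak5 had 11.2, 6.95 and 11.3 FPKM in the mutants and 12.8, 6.48 and 9.41 FPKM in the controls, with replicate 2 the lowest library of each genotype.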
